A study of Mus musculus with 24 samples.

Results

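Globin and erythroid genes were followed in a read count table of embryonic mouse skin. The 9 genes were chosen by name and not by their values, though earlier results of these data were known when they were chosen. They were the adult alpha globins Hba-a1 and Hba-a2, the adult beta globins Hbb-bs and Hbb-bt, and the embryonic beta-like globins Hbb-y and Hbb-bh1. The red cell genes Alas2, Slc4a1 and Ahsp completed the set. Counts of 8 of the 9 were analysed here, out of 54087 genes in the table, and Ahsp was not analysed here. Of these 8 genes, 7 passed the filter on low counts that 17094 genes passed, and Hbb-bh1 did not. RNA-Seq was performed on poly(A) RNA of flash-frozen dorsal skin from mouse embryos shortly before birth (E18.5). The study set out to learn how skin responds when the desmosomal cadherin desmoglein 1 is missing. Wild-type (WT) embryos carried both copies of the tandem genes Dsg1c, Dsg1a and Dsg1b, HET embryos carried 1 copy, and KO embryos carried none. All were on a C57BL/6 background, both sexes were included, and every KO and HET allele descended from 1 founder of a CRISPR/Cas9 deletion. The deletion was constitutive, so blood cells carried it as well as skin. Each genotype had 8 libraries in 2 title series, and libraries with the same title number were summed, which gave 5 columns per genotype and 15 columns in all. WT replicates 1 and 5, HET replicates 4 and 5, and KO replicates 4 and 5 had a library in title series 2 only.

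Haemoglobin, the oxygen carrier of red cells, is built from equal numbers of alpha-like and beta-like globin chains, each of which holds a heme group. During development the first red cells, from the yolk sac, carry embryonic globins such as those of Hbb-y, Hbb-bh1 and Hba-x, and red cells from the fetal liver carry the adult globins Hba-a1, Hba-a2, Hbb-bs and Hbb-bt. Alas2 encodes the erythroid enzyme that starts heme synthesis, Slc4a1 encodes the anion exchanger band 3 of the red cell membrane, and Ahsp encodes a chaperone of free alpha globin. Young red cells in the circulation have lost the nucleus but still hold globin mRNA, so blood in the vessels of a tissue adds these transcripts to its RNA. In bulk skin RNA, fewer red cells and less RNA per red cell cannot be told apart.

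The globin promoters show how alike the gene pairs are. RefSeq start sites on build GRCm38.p6 were found for 6 of the 9 genes, and not for Hbb-bh1, Slc4a1 and Ahsp. The 120 bases before each start are given 5′ to 3′ on the strand of the gene. Capitals mark matches to 4 motifs searched on both strands: the letters CACCC, read by Krüppel-like factors, the letters CCAAT of the CCAAT box, the letters TATAA of the TATA box, and the letters GATA, read by the GATA factors. A match on the opposite strand stands there as its reverse complement, and matches can touch or overlap.
Hba-a1, chr11:32283552-32283671 (+): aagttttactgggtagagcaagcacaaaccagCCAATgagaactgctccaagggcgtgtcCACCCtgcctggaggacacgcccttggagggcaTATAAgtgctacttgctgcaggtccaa
Hba-a2, chr11:32296372-32296491 (+): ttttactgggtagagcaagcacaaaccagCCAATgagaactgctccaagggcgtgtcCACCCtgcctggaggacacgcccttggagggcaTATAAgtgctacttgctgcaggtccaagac
Hbb-bs, chr7:103827929-103828048 (-): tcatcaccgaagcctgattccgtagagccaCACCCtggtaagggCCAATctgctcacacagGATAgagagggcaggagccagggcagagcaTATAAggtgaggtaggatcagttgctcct
Hbb-bt, chr7:103813924-103814043 (-): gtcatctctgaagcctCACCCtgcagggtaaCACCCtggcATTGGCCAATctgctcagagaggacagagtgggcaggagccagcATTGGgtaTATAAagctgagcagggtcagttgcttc
Hbb-y, chr7:103853208-103853327 (-): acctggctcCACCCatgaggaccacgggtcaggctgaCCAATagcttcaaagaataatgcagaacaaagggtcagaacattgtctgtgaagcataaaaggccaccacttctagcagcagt
Alas2, chrX:150547297-150547416 (+): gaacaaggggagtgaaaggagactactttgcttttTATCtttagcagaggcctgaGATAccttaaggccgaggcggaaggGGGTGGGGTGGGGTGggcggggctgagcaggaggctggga
Both alpha genes shared an unbroken run of 117 of the 120 bases, whereas the longest run shared by Hbb-bs and Hbb-bt was 14 bases. CACCC was found in all 6 windows, CCAAT in the 5 globin windows, TATAA in the 4 adult globin windows, and GATA in those of Hbb-bs and Alas2. In the same window of 27025 promoters, CACCC was present in 31.3%, GATA in 29.9%, CCAAT in 22.1% and TATAA in 12.4%. These matches describe letters, not bound sites.

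The coding sequences bear on how far the counts of each globin can be trusted. The first 60 coding bases of the beta-like genes, from GENCODE vM21 transcripts on GRCm38, are given with capitals where a base differs from Hbb-bs at the same position.
Hbb-bs: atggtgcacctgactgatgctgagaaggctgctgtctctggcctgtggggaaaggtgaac
Hbb-bt: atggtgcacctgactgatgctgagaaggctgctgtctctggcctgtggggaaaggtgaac
Hbb-y: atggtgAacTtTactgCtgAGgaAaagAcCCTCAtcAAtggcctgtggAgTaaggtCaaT
Hbb-bh1: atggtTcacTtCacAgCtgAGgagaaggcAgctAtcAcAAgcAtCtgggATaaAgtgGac
Hbb-bt had no difference from Hbb-bs in this stretch, Hbb-y had 19 and Hbb-bh1 had 18. Over the whole coding sequence of 441 bases, Hbb-bt differed from Hbb-bs at 1 base, Hbb-y at 113 and Hbb-bh1 at 115. Hba-a1 and Hba-a2 likewise differed at 1 of 426 coding bases. Of all stretches of 50 bases in the Hbb-bs transcript, 65.8% were also present in Hbb-bt, and 86.9% of those in Hba-a2 were also present in Hba-a1. None of the Hbb-y or Hbb-bh1 stretches occurred in the adult beta genes. The split between Hba-a1 and Hba-a2 and between Hbb-bs and Hbb-bt is therefore uncertain, since how reads that fit both copies were counted is not given in the sources used here. If such reads were dropped, the adult counts are too low and the embryonic share of beta-like counts is too high, in every column.

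The 15 columns held 15279289 to 33681853 counts. Dsg1a was at 650.2 to 831 CPM (counts per 1000000 counts) in WT, 332 to 444 in HET and 0.0514 to 0.811 in KO columns, in the order of the labels. The 2 libraries of title number 35, summed as WT replicate 2, disagreed in sex-linked transcripts, with Xist at 4 counts and Ddx3y at 2130 counts in series 1, and Xist at 10994 counts and Ddx3y at 1 count in series 2. These are the patterns of a male and of a female, so the libraries do not appear to come from 1 embryo. The main results keep their sum as 1 WT column. The tests of the members and of the globin shares, and the calls of Nfe2, Lcn2 and Cxcr2, were therefore repeated with each of its libraries alone. Genotype means, correlations and list values are given with the summed column only. CPM values were scaled by TMM factors. No label says which columns came from the same litter, so columns may not be independent. Every p-value treats them as independent.

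Adult beta globin was the most abundant of these transcripts, and its level differed several-fold between columns of 1 genotype. Hbb-bs, the major adult beta chain gene, was at 1017, 1546, 2637, 3064 and 2232 CPM in WT replicates 1 to 5, at 1100, 1645, 3632, 1977 and 1709 CPM in HET, and at 2014, 1929, 5469, 3042 and 2755 CPM in KO. WT replicate 1 was the lowest column and KO replicate 3 the highest, and the other 4 KO columns lay within the WT range. Hbb-bt, its near-identical neighbour, followed the same order of extremes, with 300 to 783 CPM in WT, 310 to 1042 in HET and 488 to 1557 in KO. KO replicates 3 and 4 were above every WT column for Hbb-bt, and the other 3 were not.

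The adult alpha globins moved with the beta globins. Hba-a1 was at 174, 316, 521, 695 and 377 CPM in WT, at 228, 341, 728, 405 and 359 CPM in HET, and at 466, 349, 1050.5, 630 and 461 CPM in KO. Again WT replicate 1 was lowest, KO replicate 3 highest, and HET replicate 3 stood above the other HET columns. Hba-a2 ranged from 115 to 445 CPM in WT, from 152 to 475 in HET and from 233 to 680 in KO. The genotypes overlapped for both genes.

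The non-globin red cell genes had the same pattern at lower levels. Alas2 was at 36.8, 71.2, 132, 139 and 83.8 CPM in WT, at 48.1, 71.0, 151, 87.3 and 56.3 CPM in HET, and at 107, 91.1, 218, 142 and 130 CPM in KO. All 5 KO columns lay above the WT median of Alas2, but 3 of them were below the highest WT column. Slc4a1 was at 6.84, 11.5, 14.0, 22.5 and 18.99 CPM in WT, at 11.3, 10.6, 35.4, 21.01 and 11.4 CPM in HET, and at 20.5, 13.8, 58.3, 20.3 and 15.9 CPM in KO. KO replicate 3 was the only KO column above all WT columns for Slc4a1, and the next KO column was at 20.5 CPM.

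The embryonic beta-like genes were near the limit of detection and did not share this pattern. Hbb-y was at 0.534, 0.435, 0.569, 3.02 and 0.856 CPM in WT, at 0.260, 0.632, 1.32, 0.325 and 2.87 CPM in HET, and at 0.361, 0.111, 1.92, 0.822 and 1.38 CPM in KO, on 3 to 83 counts per column. WT replicate 4 and HET replicate 5 were highest, and KO replicate 2 was lowest. HET replicate 5 was the median HET column for each of the 4 adult globins, unlike its place in Hbb-y. Hbb-bh1 had 58 counts over all 15 columns, from 0 in HET replicate 4 to 11 in HET replicate 5, and a count of 0 allows up to 3 counts. Hbb-y correlated with the adult globins, Alas2 and Slc4a1 at r = 0.36 to 0.53 over the 15 columns, while those 6 genes correlated with each other at r = 0.86 to 1.00. All columns share 1 scaling and the members are parts of the same libraries, so these correlations are a description.

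**Figure D1:**
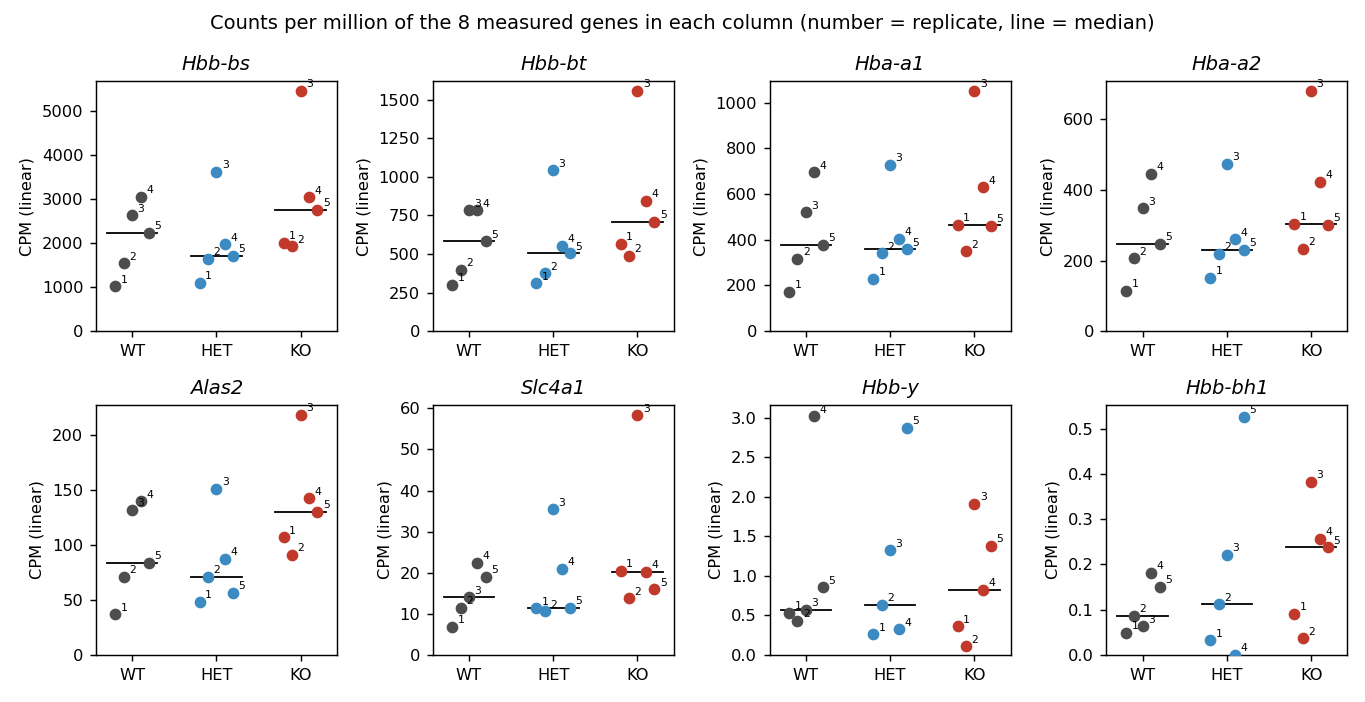
CPM on a linear axis of the 8 measured genes in the 15 columns, by genotype, with each point numbered by its replicate and the genotype median as a line. KO replicate 3 is the highest point for the adult globins, Alas2 and Slc4a1, at 5469 CPM for Hbb-bs, while Hbb-y peaks in WT replicate 4 at 3.02 CPM.

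Between genotypes, no globin or erythroid gene passed the thresholds of the study, which asked for an adjusted p of at most 0.1 together with an absolute log2 fold change of 1 or more. In KO against WT, 0 of the 7 tested genes were called by edgeR's quasi-likelihood test with Benjamini-Hochberg adjustment, beside 0.322% of the 17094 genes tested. In HET against WT 0 of 7 were called, beside 0.00% of all genes, and in KO against HET 0 of 7 were called, beside 0.181%. None had an unadjusted p under 0.05 in any of the 3 comparisons, beside 19.3%, 1.58% and 16.0% of all genes in the order given. DESeq2 and limma-voom also called 0 in each. No tested gene had genotypes that did not overlap, beside 3.37% of all genes in KO against WT, 0.374% in HET against WT and 2.25% in KO against HET.

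The fitted differences were largest for KO and close to each other among the adult genes. In KO against WT, Hbb-bs had a log2 fold change of 0.54 ± 0.37 (SE, n = 5 per genotype, edgeR adjusted p = 0.423), and Hbb-bt, Hba-a1 and Hba-a2 lay at 0.55, 0.51 and 0.51. Alas2 was at 0.57 ± 0.38 (adjusted p = 0.412 in edgeR) and Slc4a1 at 0.80 ± 0.47 (adjusted p = 0.350 in edgeR). The median over the 7 genes was 0.54, beside -0.01 over all genes tested. Hbb-y had a log2 fold change of -0.27 ± 0.77, while its KO median of 0.822 CPM was above its WT median of 0.569 CPM. Without KO replicate 3 the log2 fold change in KO against WT was 0.21 for Hbb-bs and 0.26 for Slc4a1.

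In HET embryos the differences from WT had both signs. The log2 fold changes ran from -0.16 for Alas2 to 0.28 for Slc4a1, with standard errors of 0.36 to 0.47 apart from 0.76 for Hbb-y. In KO against HET, which shares its KO columns with the first comparison, Alas2 had the largest difference, 0.73 ± 0.38 (edgeR adjusted p = 0.358), and all 5 KO columns were above the HET median. The standard errors go with a large spread between columns of 1 genotype. The biological coefficient of variation was 0.40 to 0.50 for the adult globins, Alas2 and Slc4a1 and 0.81 for Hbb-y, against a median of 0.165 over all tested genes. At least 94.9% of tested genes had a lower value than each of these members.

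**Figure D2:**
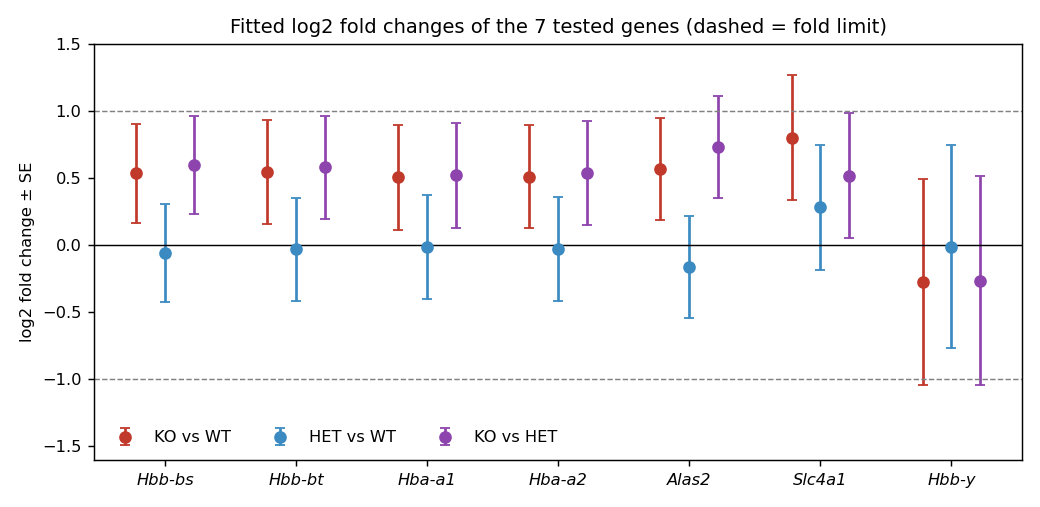
Fitted log2 fold changes with standard errors of the 7 tested genes in KO against WT, HET against WT and KO against HET, with the fold limit of 1 as dashed lines. All fitted values lie between -0.27 and 0.80, inside the dashed lines, with Slc4a1 in KO against WT the highest.

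Summed over the 8 genes, the transcripts are taken here as the blood content of each column on the scale of counts. Blood or red cells were not themselves measured. They made up 0.170%, 0.261%, 0.447%, 0.510% and 0.361% of all counts in WT, 0.191%, 0.266%, 0.591%, 0.332% and 0.293% in HET, and 0.344%, 0.293%, 0.913%, 0.474% and 0.443% in KO. The lowest column, WT replicate 1, and the highest, KO replicate 3, differed 5.36-fold. The KO mean was 0.493% ± 0.246 (SD, n = 5), against 0.350% ± 0.137 in WT and 0.335% ± 0.152 in HET, and the ranges overlapped. In summed CPM the KO mean was 1.45 times the WT mean, and 1.16 times without KO replicate 3. No test is given for this sum, which was put together from genes chosen with earlier results known.

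Where 2 libraries were made for a title number, they gave almost the same blood content, with 1 exception. In 8 of the 9 numbers the summed CPM of the libraries differed 1.03- to 1.05-fold. In number 35, WT replicate 2, it was 1920.1 CPM in series 1 and 3039 CPM in series 2, a 1.58-fold difference, with Alas2 at 51.0 and 86.9 CPM. These are the libraries that also disagreed in sex-linked transcripts. With either library of number 35 alone, no globin or erythroid gene was called in any comparison.

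**Figure D3:**
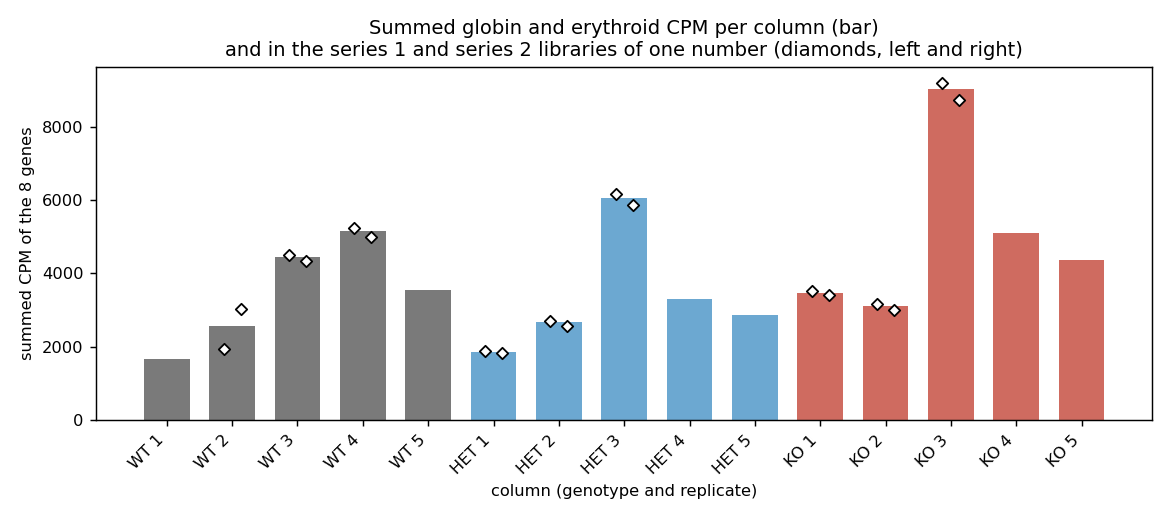
Summed CPM of the 8 globin and erythroid genes in each of the 15 columns as bars from 0, coloured by genotype, with diamonds for the series 1 and series 2 libraries where a title number had both. The diamonds nearly coincide except in WT 2, and KO 3 is the highest bar at 9035 CPM.

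The ratios of Alas2 and of Slc4a1 to globin varied less between columns than the amount of the summed signal. This did not hold for the embryonic share of beta-like globin, given below, which ran from 0.00610% to 0.153%. The 6 globins took 96.3% to 97.6% of the members' counts in every column, and being nearly all of the sum, this share had little room to vary. Alas2 stood at 20.1 to 31.8 counts per 1000 globin counts and Slc4a1 at 3.26 to 6.66, so the highest column was 1.59 and 2.04 times the lowest, compared with 5.48-fold for the summed CPM. The KO mean of Alas2 was 29.3 ± 2.70 per 1000 globin counts (SD, n = 5), beside 26.95 ± 3.22 in WT and 25.5 ± 3.12 in HET. Alpha globins took 17.96% to 23.004% of globin counts although the protein holds both kinds of chain equally. These percentages are of counts, and the reads that both copies of a pair share enter them in a way that is not given.

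Per kilobase of annotated exon, the WT means on the scale of CPM per kb fell in the order Hbb-bs at 2733, Hbb-bt at 809, Hba-a1 at 513, Hba-a2 at 408, Alas2 at 38.5, Slc4a1 at 3.02, Hbb-y at 1.71 and Hbb-bh1 at 0.173. The WT ranges of Hbb-bt and Hba-a1, of Hba-a1 and Hba-a2, and of Slc4a1 and Hbb-y overlapped. Those of Hbb-bs and Hbb-bt, of Hba-a2 and Alas2, of Alas2 and Slc4a1, and of Hbb-y and Hbb-bh1 did not. The order of the means was the same in HET and KO. Reads that both copies of a pair share enter these values too, so the order among the adult globins is uncertain.

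Embryonic globins were a small remnant of the beta-like transcripts at E18.5. Hbb-y and Hbb-bh1 together made up 0.0442%, 0.0268%, 0.0185%, 0.0832% and 0.0358% of beta-like globin counts in WT, 0.0208%, 0.0368%, 0.0330%, 0.0129% and 0.153% in HET, and 0.0175%, 0.00610%, 0.0327%, 0.0278% and 0.0467% in KO. HET replicate 5 was the highest column, with a 95% Clopper-Pearson interval of 0.120% to 0.193% that lay above the intervals of the other 14, and WT replicate 4 came next at 0.0667% to 0.102%. HET replicate 5 had a library in title series 2 only, so its value was not repeated in another library. The genotype means were 0.0417% ± 0.0251 in WT, 0.0513% ± 0.0577 in HET and 0.0262% ± 0.0154 in KO (SD, n = 5 each). A two-sided exact permutation test gave p = 0.286 for KO against WT, p = 0.857 for HET against WT and p = 0.500 for KO against HET, each 0.960 after adjustment over the 6 share tests, where the smallest p possible is 0.00794. Without HET replicate 5 the HET mean was below the WT mean, with a difference of -0.0158 percentage points.

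The embryonic alpha-like gene Hba-x, which is not among the 9 genes, was high in the same column. Its share of alpha-like counts was 0.275% in HET replicate 5 (95% Clopper-Pearson interval 0.191% to 0.385%), on 34 counts, and 0.0322% to 0.137% elsewhere. The embryonic shares of the beta-like and alpha-like genes correlated at Pearson r = 0.92 and Spearman rho = 0.69 over 15 columns, and at r = 0.65 without HET replicate 5 and WT replicate 4. No tie to the summed level of the members was seen, with r = -0.02 and rho = 0.07 between the embryonic share and the log2 summed CPM. Both relations are descriptions without a test. The beta-like and alpha-like shares have no gene in common, whereas the embryonic share and the sum are made from the same counts.

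The share of Hbb-bt in adult beta globin was similar in all genotypes, at 21.4% ± 1.29 in WT, 21.5% ± 1.69 in HET and 21.3% ± 0.899 in KO (SD, n = 5 each). Single columns ranged from 18.54% in HET replicate 2 to 22.9% in WT replicate 3. The two-sided exact permutation p was 0.905 for KO against WT, 0.960 for HET against WT and 0.817 for KO against HET, each 0.960 after adjustment. The difference between columns was repeated by their libraries. In HET replicate 2 the share was 18.7% in series 1 and 18.3% in series 2, and in WT replicate 3 it was 22.8% and 23.03%.

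**Figure D4:**
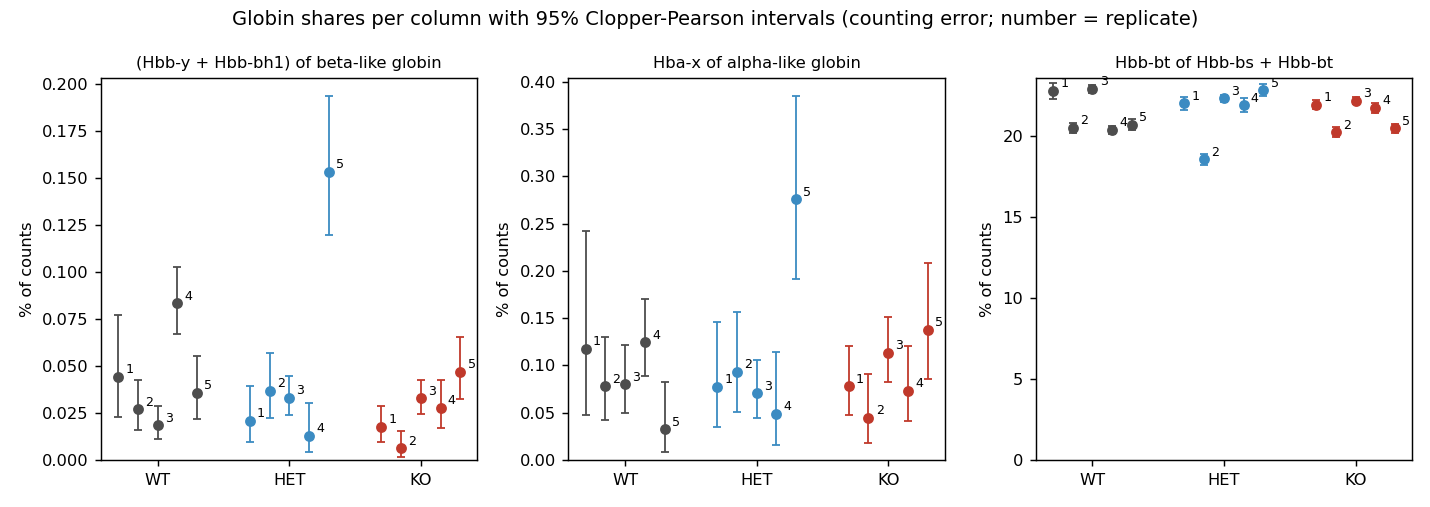
Percentage of counts from embryonic beta-like globins, from Hba-x and from Hbb-bt in each column, by genotype, with 95% Clopper-Pearson intervals that cover counting error only and the replicate number beside each point. HET replicate 5 is highest in the first and second panels, at 0.153% and 0.275%, and HET replicate 2 is lowest in the third, at 18.54%.

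Among other red cell genes, 1 was called between genotypes. Lists of other globins, heme synthesis, iron and heme uptake, red cell membrane, erythroid transcription, and red cell enzymes and maturation held 86 genes, of which 73 were tested. In KO against WT 1 of the 73 was called and it fell, beside 0.322% of all genes tested, in HET against WT 0 were called, beside 0.00%, and in KO against HET 1 was called, beside 0.181%. The median log2 fold changes over the 73 genes were 0.18, 0.06 and 0.10 in that order. In KO against WT, heme synthesis without Alas2 had a median of 0.05 over 7 genes, red cell membrane 0.17 over 19, enzymes and maturation 0.25 over 22, iron and heme uptake 0.04 over 11 and erythroid transcription 0.21 over 13, beside -0.01 over all genes. Many of these genes are also used by cells other than red cells.

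The most abundant genes of each list gave the following values in KO against WT, and none of them was called. In heme synthesis, Fech averaged 83.9 CPM in WT columns and 103.7 in KO columns (log2 fold change 0.31 ± 0.14), while Cpox and Urod, enzymes of earlier steps, were at 0.24 and -0.0014. In iron handling, Fth1, the ferritin heavy chain that stores iron, averaged 547 CPM in WT and Glrx5, a mitochondrial glutaredoxin for iron-sulfur clusters, 82.5 CPM, with log2 fold changes of 0.12 each. Tfrc, the transferrin receptor that brings iron into cells, was at 56.4 to 74.6 CPM in WT, at 74.3 to 105 in 4 HET columns and at 456 in HET replicate 3, and at 64.5 to 203 in KO. HET replicate 3 was also the highest HET column for the adult globins, Alas2 and Slc4a1. In the membrane list, Epb41, the cytoskeletal protein 4.1, was at 0.45 ± 0.12 (edgeR adjusted p = 0.104). The water channel gene Aqp1 was at -0.26 ± 0.13 and the glucose transporter gene Slc2a1 at -0.33 ± 0.36. WT columns of Slc2a1 spread widely, at 176 ± 141 CPM (SD). Prdx2, a peroxiredoxin of red cells, was at 0.02, catalase (Cat) at 0.74 and the mitophagy receptor gene Bnip3l at -0.11. Among transcription regulators, Klf3 was at 0.51 (edgeR adjusted p = 0.105), Foxo3 at 0.24 and Ldb1 at -0.20.

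The called gene was Nfe2, a transcription factor of erythroid and megakaryocytic cells, which went down in KO. It was at 8.15, 8.06, 8.06, 9.31 and 7.96 CPM in WT, at 6.87, 10.2, 8.32, 10.7 and 8.09 CPM in HET, and at 0.962, 5.53, 3.06, 2.36 and 2.29 CPM in KO. Every KO column was below every WT and HET column. The log2 fold change was -1.55 ± 0.30 in KO against WT (edgeR adjusted p = 0.0423) and -1.63 in KO against HET (edgeR adjusted p = 0.0545). Of 28 alternative settings, which were chosen for this gene after seeing the data, 22 kept it past both limits in KO against WT. They include the 24 libraries unsummed, which wrongly counts libraries of the same title number as separate replicates. The edgeR adjusted p was 0.196 with only these genotypes in the fit and 0.551 in title series 1 alone, with fold changes of -1.55 and -1.40 on the log2 scale. Leaving out WT replicate 1, 2 or 3 or KO replicate 4 moved the adjusted p in edgeR to between 0.105 and 0.121, with the fold change between -1.56 and -1.49. With only the series 1 or only the series 2 library of number 35, the adjusted p in edgeR was 0.0436 or 0.0471. Its level correlated with the summed members at r = -0.34. Whether Nfe2 in these libraries came from blood or from skin cells was not tested.

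Across the 15 columns, the genes that tracked the summed members most closely included known red cell genes. Of 15052 other genes that reached 20 counts per column on average, the 10 with the highest Pearson r between log2(CPM + 1) and the log2 summed CPM of the members included Fam46c at 0.98, Ube2l6 at 0.96, Bpgm at 0.93, Fech at 0.92, Tspo2 at 0.88, Trim10 at 0.88, Fam220a at 0.87 and Mkrn1 at 0.87. The median over all 15052 genes was -0.01. Bpgm makes the red cell regulator 2,3-bisphosphoglycerate, and Fech inserts iron into heme. Of the first 100 genes, 16 were in the red cell lists, which held 69 of the 15052 genes ranked. None of the named genes was called in KO against WT, where their log2 fold changes ran from 0.16 for Fam220a to 1.11 for Trim10.

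Most genes of heme synthesis and erythroid transcription did not reach r of 0.7 with the members. An r this high was rare, since in the ranking of 15052 other genes the last to reach 0.7 was in place 35. Fech was the 1 gene of 7 in the heme synthesis list with r of 0.7 or above, and the list median was 0.29. In erythroid transcription 0 of 12 genes reached 0.7 and the median r was -0.04, in red cell membrane 5 of 18 did, and in enzymes and maturation 8 of 21.

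Markers of other blood and skin cells gave the background to these values. The neutrophil list had a median log2 fold change of 1.22 over 13 tested genes in KO against WT, with Lcn2, an iron-binding antimicrobial protein, at 2.03 (edgeR adjusted p = 0.0978) and Cxcr2, a chemokine receptor, at 2.31 (edgeR adjusted p = 0.0891) called. Its summed level was 21.2 to 34.8 CPM in WT, 22.95 to 61.2 in HET and 30.6 to 123 in KO. The log2 of this level correlated with that of the members at r = 0.59 and rho = 0.56 over the 15 columns. With genotype means removed, r was 0.49. Single genes of the list differed in this. Of its 10 genes with 20 or more counts per column on average, 2 reached r of 0.7, and the median r was 0.54. Values ran from -0.36 for Ctsg and -0.18 for Camp to 0.71 for Ngp and 0.79 for Ltf. S100a8 was at r = 0.52 and S100a9 at r = 0.57. The call of Lcn2 was kept in 13 of 28 alternatives and that of Cxcr2 in 15 of 27, and both were lost on leaving out WT replicate 1, 2, 3 or 5, HET replicate 1, 3 or 5, or KO replicate 1 or 4, with edgeR adjusted p of 0.108 to 0.219. Both were also lost with only the series 1 library of number 35 (edgeR adjusted p = 0.117 for Lcn2 and 0.105 for Cxcr2), with only the 2 genotypes in the fit (0.198 and 0.196 in edgeR) and in title series 1 alone (0.551 and 0.566 in edgeR). With only the series 2 library of number 35 both were kept, at edgeR adjusted p of 0.0928 and 0.0867. The settings that kept both include the 24 libraries unsummed, where libraries of the same title number count as separate replicates. The calprotectin genes S100a8 and S100a9, which keratinocytes can also express, were at 1.71 and 1.73 (edgeR adjusted p = 0.102 and 0.109), and Ctsg, a neutrophil granule protease, was at 0.06. The megakaryocyte and platelet list, with a median of -0.21 over 8 tested genes and no call, did not track the members, with r = 0.14 and rho = -0.04. Pf4, a platelet chemokine, had mean levels of 43.1 CPM (WT) and 35.4 CPM (KO), with Gata2 and the integrin gene Itgb3 at -0.26 and -0.16 on the log2 scale. Ppbp, another platelet chemokine, which was singled out after its values were seen, was at 248 CPM in KO replicate 4 and at 0.335 to 3.12 CPM in the other 14 columns. KO replicate 4 had a library in title series 2 only. Endothelial markers had log2 fold changes from -0.51 for Egfl7 (edgeR adjusted p = 0.102) to 0.17 for Cdh5 in KO against WT, with a median of 0.06 over 12 genes, no call and r = 0.15 with the members. Pecam1, an adhesion molecule of vessel walls, was at a mean of 106 CPM in WT columns against 108 in KO columns, with Kdr of the same cells at 0.07 and Plvap at -0.32 on the log2 scale. Keratinocyte, skeletal muscle and other leukocyte lists had r of 0.26, -0.18 and -0.11 with the members, medians of 0.26, -0.15 and 0.13 in KO against WT, and no call. The keratinocyte list, led by Krt10, Krt1 and Lor, summed to 60202 CPM or more in every column, and Ivl, a precursor of the cornified envelope, had an edgeR adjusted p of 0.0231 at a log2 fold change of 0.76, under the fold limit. Muscle genes were led by Acta1, Myh8 and Mylpf at -0.07, 0.07 and -0.19, and the macrophage genes Lyz2, Csf1r and C1qa were at -0.16, 0.05 and -0.13. The part of neutrophil RNA in the members' values was not tested.

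**Figure D5:**
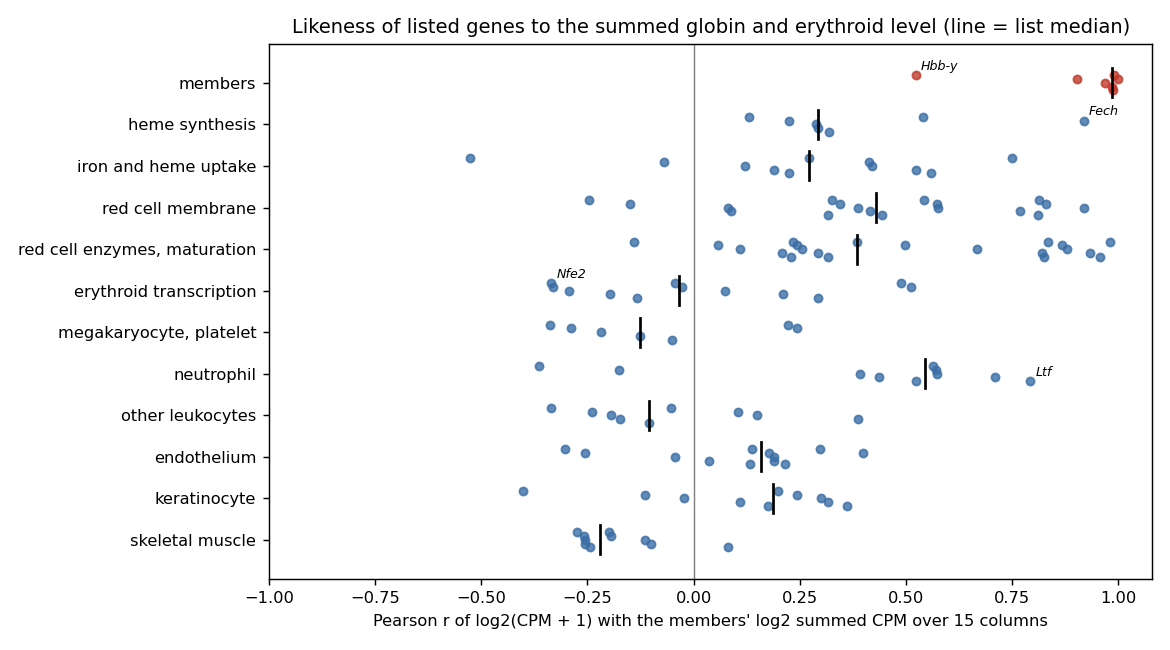
Pearson r over 15 columns between log2(CPM + 1) of each listed gene (20 or more counts per column on average) and the log2 summed CPM of the members, by list, with the list median as a line. The members other than Hbb-y lie at 0.90 or above, partly because they make up the sum, while the medians of erythroid transcription and of megakaryocyte and platelet genes lie below 0.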

How the data were processed

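The deposited file held raw read counts of genes per library, and the authors made these counts with STAR and HTSeq, per the labels, which give no version. The labels name the build hg19, a human one, while the gene symbols are of the mouse, so the mouse build is not given in the sources used here. Libraries with the same title number were summed, and all 24 library columns were used, so none was left out. The 9 genes, the other lists and the thresholds were chosen with earlier results of these data known. The main test was edgeR 4.0.16 (R 4.3.3) with TMM factors, its default filter on low counts, a quasi-likelihood fit over the 3 genotypes, and Benjamini-Hochberg adjustment over 17094 genes. Both globin shares were compared with a two-sided exact permutation test (scipy 1.17.1). Named were all members, from each other list the 3 tested genes with the highest mean CPM and each with an adjusted p of 0.1 or below, and the 10 genes most like the members, of which some are not reported here. Ppbp, Egfl7 and Plvap were chosen for naming after their values were seen, and Dsg1a, Xist and Ddx3y were named to check the labels. Alternatives were DESeq2 1.42.0, limma-voom (limma 3.58.1), other scalings and filters, each pair of genotypes alone, the 24 libraries unsummed, each title series alone, number 35 with 1 library, and leaving out each column. The same alternatives for Nfe2, Lcn2 and Cxcr2 were chosen after seeing the data. The scripts were tested on simulated data. Intervals and the limit of 3 counts for a count of 0 cover counting error only. The total count was 15279289 to 33681853 per column.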

Additional observations from a re-analysis of the deposited data

Results flagged for a closer look

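In 33 groups of 5 columns tested for a column that stands apart, about 1 in 20 would be flagged by chance, and 4 were. Hbb-y in WT replicate 4 was at 3.02 CPM, with the next WT column at 0.856, a gap of 0.837 of the range. Slc4a1 in KO replicate 3 was at 58.3 CPM, with the next KO column at 20.5, a gap of 0.848 of the range. The embryonic share of beta-like globin in HET replicate 5, which had a library in title series 2 only, was 0.153%. The next HET column was at 0.0368%, a gap of 0.829 of the range. The Hbb-bt share of adult beta globin in HET replicate 2 was 18.54%, with the nearest HET column at 21.9%, a gap of 0.783 of the range, and both libraries of that column gave it.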

How the results depend on the processing

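No globin or erythroid gene passed both limits in any comparison under any alternative, so the count of called members stayed at 0 in all of them. In KO against WT the 4 adult globins, Alas2 and Slc4a1 stayed above 0 in all 28 alternatives each, from 0.19 for Hba-a1 without KO replicate 3 to 1.05 for Slc4a1 in title series 1 alone. The cause of the changes of direction that follow was not tested, and each concerns a difference within the spread between columns.

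In HET against WT, log2 fold changes turned from below to above 0 for Hba-a1 with limma-voom (0.042) and without the series 2 library of number 35 (0.045), for Hba-a2 in the same settings (0.021 and 0.034), for Hbb-bt without that library (0.018), and for Hbb-y with DESeq2 (0.000196) and in title series 2 alone (0.030). Nfe2 in HET against WT turned to -0.014 in title series 1 alone, and Hbb-y in KO against HET to 0.085 there. Leaving out 1 column at a time gave ranges in HET against WT of -0.32 to 0.25 for Hba-a1, -0.34 to 0.22 for Hba-a2, -0.38 to 0.12 for Hbb-bs, -0.38 to 0.12 for Hbb-bt, -0.74 to 0.87 for Hbb-y, -0.49 to 0.032 for Alas2 and -0.12 to 0.49 for Slc4a1. Hbb-y ranged from -0.76 (without KO replicate 3) to 0.60 (without WT replicate 4) in KO against WT and from -0.75 to 0.47 in KO against HET, and Slc4a1 from -0.027 (without KO replicate 3) to 0.93 in KO against HET.

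The embryonic share in HET against WT turned to -0.0777 as a log2 ratio, -0.000388 percentage points over 24 libraries and -0.00413 in title series 1 alone, and leaving out 1 column gave -0.0158 (without HET replicate 5) to 0.0200. In KO against HET that range was -0.0348 to 0.000274, the latter without HET replicate 5. The Hbb-bt share turned to 0.0496 percentage points in title series 1 alone in KO against WT, to -0.0935 over 24 libraries and -0.288 in title series 1 alone in HET against WT, and to 0.0702 and 0.337 in the same settings in KO against HET. Its ranges on leaving out 1 column were -0.417 to 0.222 in KO against WT, -0.253 to 0.812 in HET against WT and -0.956 to 0.108 in KO against HET. The exact p stayed above 0.05 throughout, and with 3 columns per genotype in title series 1 alone it cannot go below 0.1. No paired analysis was possible because WT, HET and KO embryos have no title number in common.

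Hbb-y had 3 to 83 counts per column, so counting error widens each embryonic share, and the spread between columns limits the comparison of genotypes for embryonic and adult genes alike.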
